A study of Mus musculus with 6 samples.

Results

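The mitochondrial genome of the mouse gave 37 of the 41709 genes in the deposited table, chosen as the rows whose name starts with mt- and whose chromosome is MT. They were the genes of the 2 ribosomal RNAs (rRNAs), 13 proteins and 22 transfer RNAs (tRNAs) of the organelle. Each protein-coding gene with its counts is called an mRNA below, which does not mean a transcript of its own. The study asked how a diet without enough zinc bears on the olfactory mucosa and its regeneration. RNA was measured in the rear nasal septum, bone included, of mice that ate, from an age of 4 to 8 weeks, either a control diet with sufficient zinc or a diet deficient in zinc. Each diet had 3 libraries, numbered 4, 5 and 6 in both. The labels give no strain or genotype, and they do not say whether each library came from a mouse of its own, so a p-value here speaks for the spread among libraries, part or all of which may be technical.

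Mitochondria keep a small circular genome whose mRNAs encode core subunits of the respiratory chain and of the ATP synthase, while the rRNAs and tRNAs serve the organelle's own ribosomes. Both strands are copied into long precursors, and tRNAs that lie between the other genes mark the places where the precursors are cut. The remaining subunits, and the proteins that copy, cut and translate mitochondrial RNA, come from nuclear genes.

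The tRNA genes on which the results below turn, and the pair that borders the large rRNA gene, had these sequences in GENCODE M21 on GRCm38, 5′ to 3′ on the RNA's strand with T for U and the anticodon in capitals. The gene mt-Tv (MT, 1025 to 1093, valine) lies between mt-Rnr1 and mt-Rnr2, and mt-Tl1 (MT, 2676 to 2750, leucine) follows mt-Rnr2. The genes mt-Te (MT, 14071 to 14139, glutamate) and mt-Ts1 (MT, 6870 to 6938, serine) are read from the opposite strand to the rRNAs and held the most tRNA counts, and mt-Th (MT, 11546 to 11612, histidine) came next in the sum of the zinc-deficient libraries.
mt-Tv: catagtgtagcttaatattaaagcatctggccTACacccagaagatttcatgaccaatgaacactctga
mt-Tl1: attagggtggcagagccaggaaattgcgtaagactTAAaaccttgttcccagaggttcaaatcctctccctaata
mt-Te: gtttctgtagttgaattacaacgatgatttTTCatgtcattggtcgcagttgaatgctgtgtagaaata
mt-Ts1: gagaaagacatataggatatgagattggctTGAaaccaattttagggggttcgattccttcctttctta
mt-Th: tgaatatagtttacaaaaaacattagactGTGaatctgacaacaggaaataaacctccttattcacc

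A pair of mRNA overlaps is shown because neighbours there share bases, and a read in the shared stretch can belong to either gene. The overlap is in capitals: mt-Atp8 ends and mt-Atp6 begins in the first (MT, 7907 to 7989), which shares 43 bases, and mt-Nd4l ends and mt-Nd4 begins in the second (MT, 10147 to 10193), which shares 7 bases.
mt-Atp8/mt-Atp6: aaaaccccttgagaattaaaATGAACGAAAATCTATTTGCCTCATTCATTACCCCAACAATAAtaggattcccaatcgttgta
mt-Nd4l/mt-Nd4: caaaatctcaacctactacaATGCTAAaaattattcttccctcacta
All 37 genes had the same start, end and strand in GENCODE M21 as in the deposited table.

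Depth was between 11731999 and 16748740 gene counts per control library and between 14397826 and 18727863 per zinc-deficient library. Levels below are CPM, counts scaled to the TMM-scaled library size, or the deposited RPKM where genes of different length are compared. A floor of 3 counts was between 0.157 and 0.239 CPM, for counting error only. The labelled tissue was present: 8 marker genes of olfactory neurons summed to between 6730 and 8006 CPM in control libraries and between 8976 and 10440 CPM in zinc-deficient ones. The library labelled zinc-deficient 4 stood apart in the mitochondrial genes, with 61730 mitochondrial counts against between 127815 and 195932 in the other 5 libraries.

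Among the 15 rRNA and mRNA genes, all of which passed the filter on low counts, both rRNAs fell with the zinc-deficient diet and no mRNA passed the test. Over all 18427 genes tested with edgeR's quasi-likelihood test at a Benjamini-Hochberg adjusted p of 0.05, 0.0326% fell, 0.0868% rose and 0.119% were called in either direction. A further 2 of the 22 tRNA genes were tested and neither was called. The ranges of the diets did not overlap, with zinc deficiency lower, for 4 of the 15 (mt-Rnr1, mt-Rnr2, mt-Atp8 and mt-Nd3), or 26.7%, beside 9.31% of all genes tested.

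**Figure D1:**
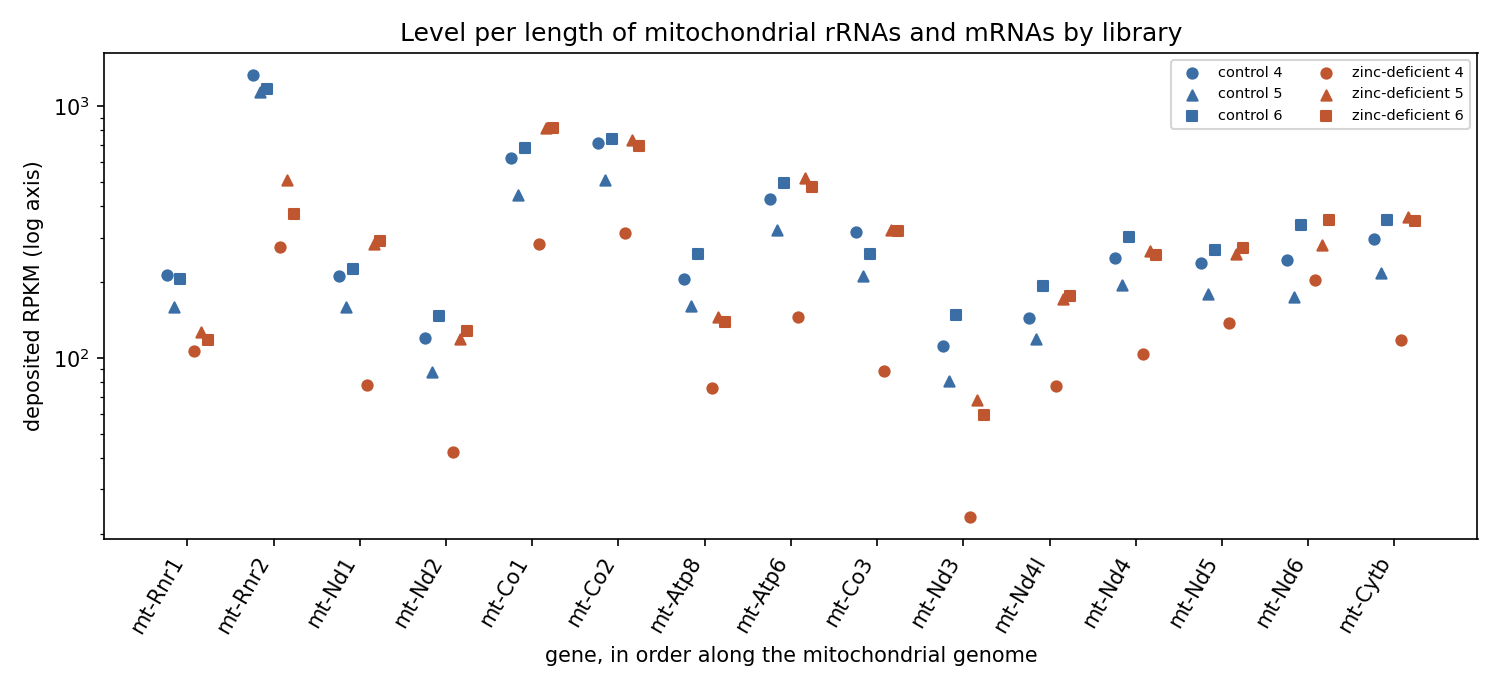
Deposited RPKM (log axis) of the 2 rRNAs and 13 mRNAs in genome order, with 1 point per library, control in blue and zinc-deficient in orange. The zinc-deficient points of mt-Rnr2, between 276.4 and 506.8, lie below the control points, between 1132 and 1327, and zinc-deficient 4 is lowest for 12 of the 13 mRNAs.

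The large-subunit rRNA, mt-Rnr2 (ENSMUSG00000064339; MT, 1094 to 2675), is the scaffold of the large subunit of the mitochondrial ribosome. Its level was 4285, 3925 and 3834 CPM in the control libraries and 919.8, 1516 and 1084 CPM in the zinc-deficient ones. Every zinc-deficient library was below every control library by a wide margin. The mean was 4015 ± 238.4 CPM (SD, n = 3) on the control diet and 1173 ± 308 CPM (SD, n = 3) on the zinc-deficient diet, a 3.42-fold difference. The log2 fold change was −1.77 with an SE of 0.21 and an edgeR adjusted p of 0.0118. It passed the test in each of the 6 fits that left out 1 library, with edgeR adjusted p between 0.00961 and 0.0497.

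The small-subunit rRNA, mt-Rnr1 (ENSMUSG00000064337; MT, 70 to 1024), plays the same part in the small subunit. Its level was 416.8, 334 and 409.6 CPM in control libraries and 214.2, 227.8 and 207.7 CPM in zinc-deficient ones. The ranges did not overlap, and the zinc-deficient libraries lay close together. The mean went from 386.8 ± 45.86 to 216.6 ± 10.26 CPM (SD, n = 3 each), a 1.79-fold difference with a log2 fold change of −0.84, an SE of 0.14 and an edgeR adjusted p of 0.0479. This call was at the edge of the threshold: of the 6 fits that left out 1 library, only that without control 5 passed, at an edgeR adjusted p of 0.0469, and without control 4, control 6, zinc-deficient 4, zinc-deficient 5 or zinc-deficient 6 it was lost, with adjusted p between 0.0875 and 0.165. The direction was the same in all 6, with log2 fold changes between −0.93 and −0.77.

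The rRNAs lie next to each other on the heavy-strand template with mt-Tv between them, but their ratio differed between the diets. Counts of mt-Rnr2 were 10.3, 11.8 and 9.36 times those of mt-Rnr1 in control libraries and 4.29, 6.66 and 5.22 times in zinc-deficient ones. The zinc-deficient ratios were all below the control ratios, with means of 5.39 ± 1.19 and 10.5 ± 1.21 (SD, n = 3). On the log2 scale the difference was −0.97, with an exact two-sided permutation p of 0.1, the smallest that 3 against 3 libraries allow, and 0.163 after adjustment over the 13 class measures tested. The libraries had been depleted of rRNA with a kit before sequencing, per the labels, so both rRNA levels are what depletion left, and a difference in rRNA content cannot be told apart from a difference in depletion. The cytosolic rRNA gene Rn18s-rs5, the remainder of another depleted rRNA, was at 4936, 2719 and 5381 CPM in control libraries and 6341, 3956 and 6161 CPM in zinc-deficient ones. The ranges of Rn18s-rs5 overlapped, with a log2 fold change of 0.34 and an edgeR adjusted p of 0.640. Counts of mt-Rnr2 were 0.868, 1.44 and 0.713 times those of Rn18s-rs5 in control libraries and 0.145, 0.383 and 0.176 times in zinc-deficient ones, again without overlap.

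**Figure D2:**
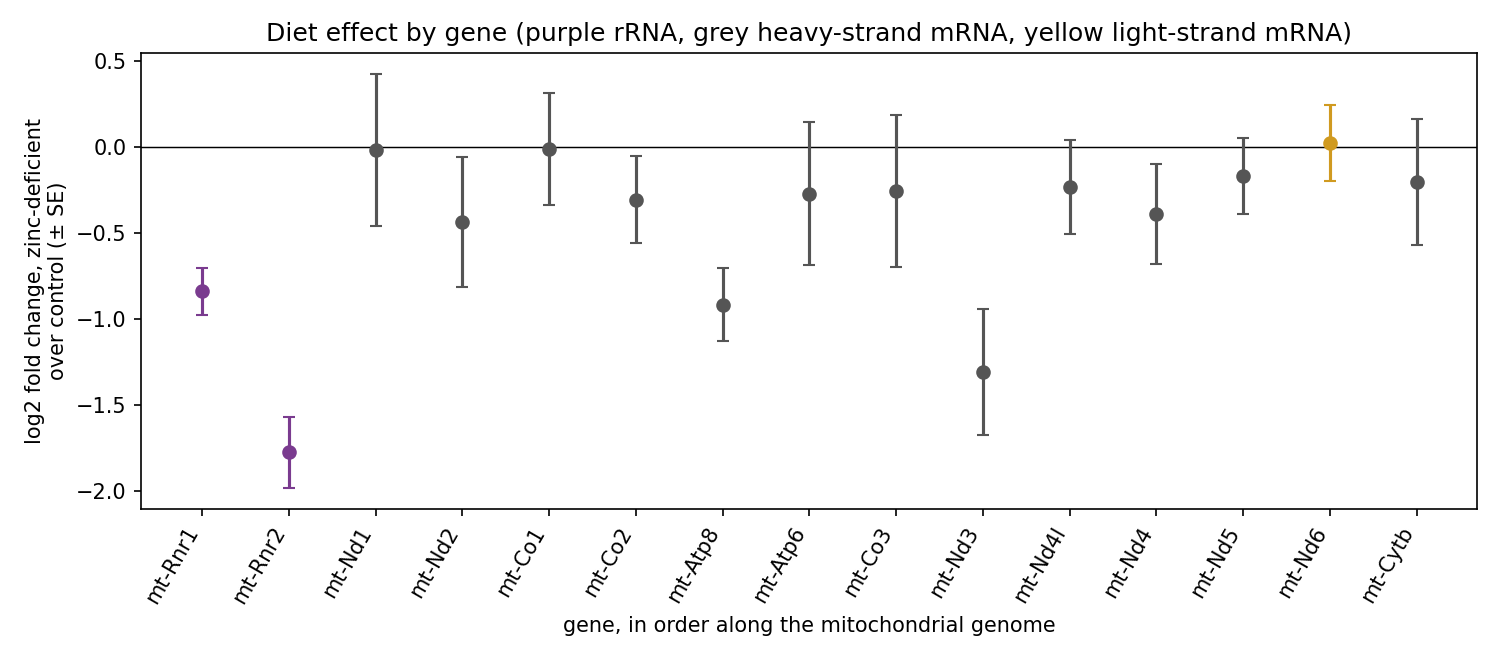
Log2 fold change of zinc-deficient over control libraries with its SE for each rRNA (purple), heavy-strand mRNA (grey) and the light-strand mRNA mt-Nd6 (yellow), in genome order. The rRNAs are at −0.84 and −1.77, mt-Atp8 and mt-Nd3 at −0.91 and −1.31, and the other 11 mRNAs between −0.43 and 0.025.

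None of the 13 mRNAs passed edgeR's test, and 2 had an unadjusted p under 0.05 and were lower, beside 6.46% of all genes tested. A negative log2 fold change was seen in 12 of 13, beside 9261 of all 18427 genes tested. DESeq2 called 1 of them lower, mt-Atp8, whose adjusted p lay between 0.00438 and 0.333 over 16 alternatives, and limma-voom and limma on RPKM called 0. The median log2 fold change over the 13 was −0.25, beside −0.0021 over all genes tested. This lean rested on 1 library: without zinc-deficient 4 the median was 0.055, 5 of 13 were negative and the log2 fold changes ran from −0.99 (mt-Nd3) to 0.37 (mt-Nd1). That library was the lowest of all 6 for every mRNA except mt-Nd6. In bulk tissue, fewer cells of a type and less RNA per cell cannot be told apart.

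Complex I, the NADH dehydrogenase at the entry of the respiratory chain, takes 7 of its subunits from this genome. The core subunit mt-Nd3 (MT, 9459 to 9806) was at 78.86, 61.95 and 106.7 CPM in control libraries and 17.09, 44.67 and 37.98 CPM in zinc-deficient ones. The zinc-deficient libraries were all lower, with no overlap. Its log2 fold change was −1.31 (SE 0.37), with an edgeR adjusted p of 0.253, so the difference did not pass. Between 23.34 and 147.3 RPKM, mt-Nd3 was at rank 15 or 14 of the 15 rRNA and mRNA genes per length in every library. Without zinc-deficient 4 its log2 fold change was −0.99.

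The other complex I mRNAs overlapped between the diets. The proton-pumping subunit mt-Nd2 was at 254.8, 200 and 317.9 CPM in control libraries and 92.66, 233.3 and 245.7 CPM in zinc-deficient ones, and mt-Nd4, another pumping subunit, at 697.9, 586 and 867.5 against 299, 689.3 and 654 CPM. In both, zinc-deficient 4 was lowest by far and the other zinc-deficient libraries fell among the controls. Their log2 fold changes were −0.43 (SE 0.38) and −0.39 (SE 0.29). The gene mt-Nd4l, which overlaps mt-Nd4, was at 87.11, 77.3 and 119.1 CPM and then 48.39, 96.1 and 96.7 CPM, with a log2 fold change of −0.23 (SE 0.27). The membrane subunit mt-Nd1, next to mt-Tl1 and the rRNAs on the genome, was at 412.9, 334.7 and 448.3 CPM in control libraries. It was at 157.7, 510.2 and 515.8 CPM in zinc-deficient libraries, so zinc-deficient 4 was below and the others above all controls, with a log2 fold change of −0.014 (SE 0.44), or 0.37 without zinc-deficient 4.

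The light-strand template of this genome carries a single mRNA, mt-Nd6, and it lies opposite the end of mt-Nd5, with which it shares 14 bases. The level of mt-Nd5 was 881.9, 719.5 and 1019 CPM in control libraries and 527.4, 889.1 and 917.9 CPM in zinc-deficient ones. The level of mt-Nd6 was 258.8, 197.9 and 365.2 CPM and then 222.2, 274.8 and 339.2 CPM, so here zinc-deficient 4 was not the lowest library. Counts of mt-Nd6 were 29.3, 27.5 and 35.9% of those of mt-Nd5 in control libraries and 42.1, 30.9 and 37.0% in zinc-deficient ones, which overlapped. The log2 fold changes were −0.17 (SE 0.22) for mt-Nd5 and 0.025 (SE 0.22) for mt-Nd6. The sources used here do not say that counting used the strand, so RNA of mt-Nd6 and antisense RNA of mt-Nd5 cannot be told apart where they overlap, nor can antisense RNA within any other gene.

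Complex III, which passes electrons to cytochrome c, takes 1 subunit from this genome, cytochrome b (mt-Cytb). Its level was 694, 542.7 and 838.6 CPM in control libraries and 282, 782.8 and 740.6 CPM in zinc-deficient ones. Only zinc-deficient 4 lay outside the control range, and the log2 fold change was −0.20 (SE 0.37).

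Complex IV, the cytochrome c oxidase, takes its 3 core subunits from this genome, and mt-Co1 and mt-Co2 were the most abundant mRNAs per length. The catalytic subunit mt-Co1 was at 1965, 1505 and 2201 CPM in control libraries and 922.9, 2380 and 2331 CPM in zinc-deficient ones. Zinc-deficient 4 was below all controls and the others above them, and the log2 fold change was −0.0095 (SE 0.33), or 0.32 without zinc-deficient 4. The copper-binding subunit mt-Co2 was at 995.3, 762.2 and 1054 CPM against 452.5, 946.6 and 875.9 CPM, a log2 fold change of −0.31 (SE 0.25). The core subunit mt-Co3 was at 505.9, 362.6 and 421.8 CPM against 145.8, 475.3 and 460.5 CPM, a log2 fold change of −0.25 (SE 0.44). In both, the ranges overlapped and zinc-deficient 4 was again lowest.

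By RPKM, mt-Rnr2 was first of the 15 in each control library, ahead of mt-Co2 and mt-Co1. In the zinc-deficient libraries its ranks were 3, 4 and 4, behind both of them, and mt-Co1 or mt-Co2 was first. The rank of mt-Rnr1 was 10, 11 and 12 in control libraries and 8, 13 and 14 in zinc-deficient ones, which overlapped.

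Complex V, the ATP synthase, takes from this genome the proton-channel subunit mt-Atp6 and the short membrane subunit mt-Atp8, which overlap. The level of mt-Atp8 (MT, 7766 to 7969) was 85.32, 71.81 and 109.3 CPM in control libraries and 32.63, 56.11 and 52.38 CPM in zinc-deficient ones. All zinc-deficient libraries were below all controls, with a log2 fold change of −0.91 (SE 0.21) and an edgeR adjusted p of 0.151, so it did not pass. The level of mt-Atp6 was 592.6, 481.7 and 703.5 CPM against 207.8, 664.9 and 601.7 CPM, with overlap and a log2 fold change of −0.27 (SE 0.41). Without zinc-deficient 4 the log2 fold changes were −0.71 for mt-Atp8 and 0.10 for mt-Atp6. These are counts by gene, so they do not show that separate transcripts of mt-Atp8 and mt-Atp6 differed.

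Because zinc-deficient 4 was low for nearly every mRNA, the make-up of the mitochondrial mRNA pool was also compared, as each gene's percent of the mRNA counts of its library. The shares of 5 genes did not overlap between the diets, 1 higher and 4 lower with zinc deficiency. Each of the 5 had an exact two-sided permutation p of 0.1, the smallest possible, and 0.26 after adjustment over the 13 genes. The share of mt-Nd3 was 1.05, 1.049 and 1.245% in control libraries and 0.501, 0.555 and 0.483% in zinc-deficient ones. The share of mt-Atp8 was 1.136, 1.216 and 1.275% against 0.957, 0.698 and 0.666%. For mt-Nd3 zinc-deficient 4 lay with the other zinc-deficient libraries, while for mt-Atp8 it was nearest to the controls.

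Relative to the mean control share, the mean share changed by −54.0% for mt-Nd3 and −36.0% for mt-Atp8, and by −16.7% for mt-Nd2, −12.6% for mt-Nd4 and 11.6% for mt-Co1. The share of mt-Nd2 was 3.392, 3.388 and 3.709% in control libraries and 2.719, 2.901 and 3.123% in zinc-deficient ones. That of mt-Nd4 was 9.292, 9.927 and 10.12% against 8.774, 8.57 and 8.311%. The share of mt-Co1 was higher with zinc deficiency, at 26.16, 25.49 and 25.68% against 27.08, 29.59 and 29.62%. Zinc-deficient 4 also stood apart in make-up: mt-Nd6 held 6.52% of its mRNA counts against between 3.35 and 4.31% in the other 5 libraries, and mt-Nd5 held 15.47% against between 11.05 and 12.19%.

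**Figure D3:**
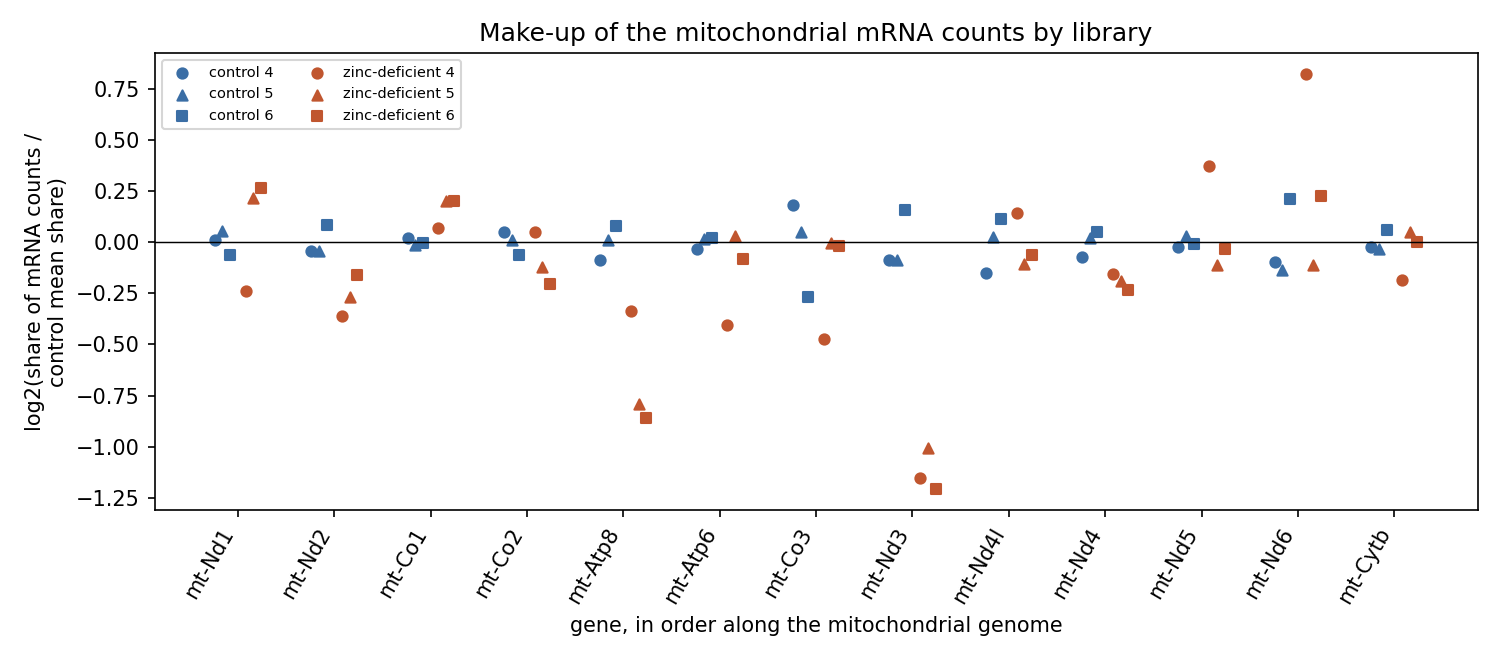
Share of each of the 13 mRNAs in the mitochondrial mRNA counts of a library, as log2 of the share over the mean control share, with 1 point per library, control in blue and zinc-deficient in orange. All zinc-deficient points of mt-Nd3 and mt-Atp8 lie below the control points, and zinc-deficient 4 is high for mt-Nd5 and mt-Nd6.

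Added up by complex, the shares of complexes I, III and IV overlapped between the diets. Complex I genes held 35.58, 36.88 and 37.84% of the mRNA counts in control libraries and 40.04, 34.04 and 35.67% in zinc-deficient ones, and complex IV genes 46.15, 44.55 and 42.9% against 44.63, 47.27 and 46.6%. Complex V genes held 9.026, 9.376 and 9.482% in control libraries and 7.054, 8.964 and 8.312% in zinc-deficient ones, which came close to the controls without overlapping them. The exact permutation p was 0.1, and 0.163 after adjustment over the 13 class measures. The difference in the complex V share was −1.18 percentage points, and −0.657 without zinc-deficient 4.

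Several of these mRNAs have near-identical copies in the nuclear genome, between which counting can split reads. In GENCODE M21, 7 mRNA genes (mt-Atp6, mt-Co1, mt-Co2, mt-Co3, mt-Nd3, mt-Nd4 and mt-Nd4l) matched pseudogenes on chromosome 1 with between 99.71 and 100% identity, over 31.3% of mt-Co1, 63.6% of mt-Nd4 and nearly all of others such as mt-Atp6 (99.6%). No row of the table matched those pseudogenes by identifier, so their counts could not be analysed. The levels of these 7 genes, and of mt-Atp8 that overlaps one of them, are thus uncertain in size. Apart from mt-Atp8, the mRNA genes without a match of at least 99% identity were mt-Nd1, mt-Nd2, mt-Nd5, mt-Nd6 and mt-Cytb. Their log2 fold changes lay between −0.43 and 0.025. Matches of lower identity were found for mt-Nd2 (96.7%), mt-Nd5 (95.2%), mt-Nd6 (93.6%) and mt-Cytb (92.9%).

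Summed by class, rRNA was separate between the diets and mRNA was not. Mitochondrial rRNA made up 0.463, 0.457 and 0.387% of all gene counts in control libraries and 0.107, 0.187 and 0.132% in zinc-deficient ones. Mitochondrial mRNA made up 0.739, 0.633 and 0.782% and then 0.321, 0.861 and 0.802%. The rRNA ranges were separate, and the mRNA range of the zinc-deficient diet spanned that of the controls. The difference in the mRNA share was −0.0566 percentage points with zinc-deficient 4 and 0.114 without it. Counts of rRNA were 0.626, 0.721 and 0.495 times those of mRNA in control libraries and 0.333, 0.217 and 0.164 times in zinc-deficient ones. The log2 ratio differed by −1.41, with an exact permutation p of 0.1 and 0.163 after adjustment over the 13 class measures. The ratio of mt-Rnr1 alone to mRNA overlapped, at 5.55, 5.66 and 4.78% against 6.28, 2.83 and 2.64%. The overlap rested on zinc-deficient 4, which had the highest of these 6 values: the difference in the log2 ratio was −0.56, and −0.96 without it.

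**Figure D4:**
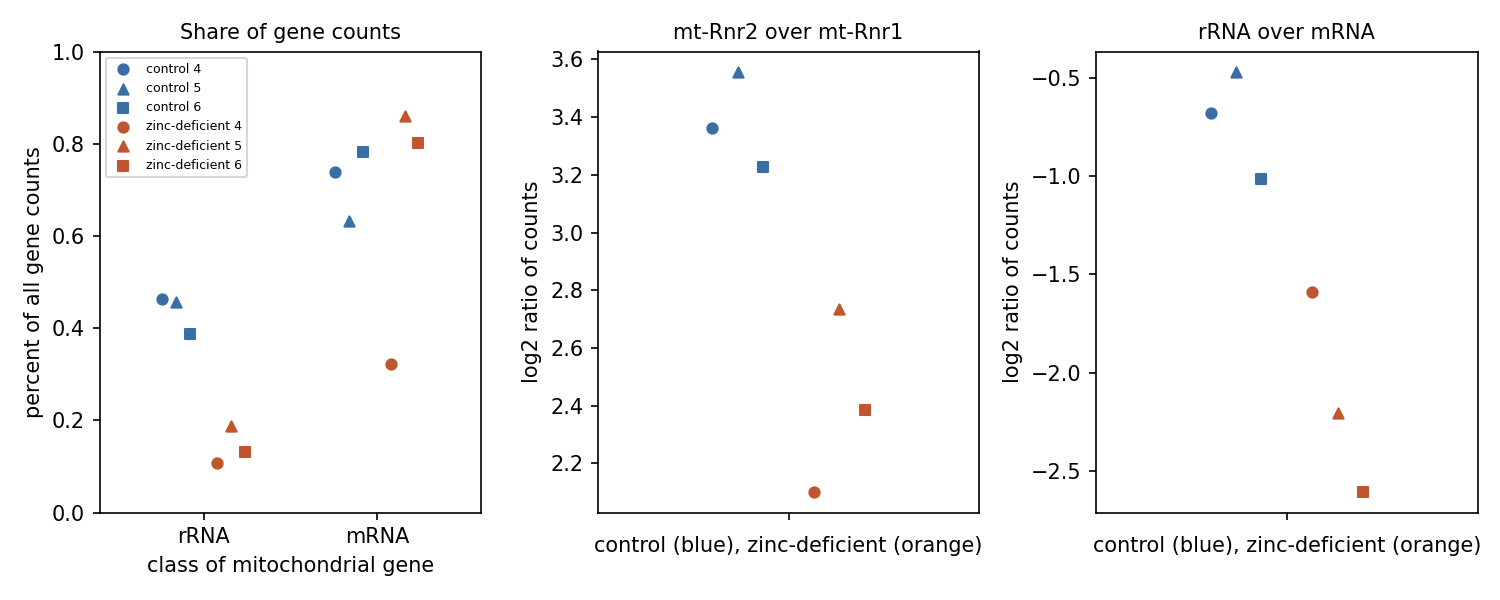
Left, mitochondrial rRNA and mRNA as a percent of all gene counts in each library. Middle and right, the log2 ratio of counts of mt-Rnr2 over mt-Rnr1 and of rRNA over mRNA, with 1 point per library, control in blue and zinc-deficient in orange; both ratios are lower in all zinc-deficient libraries.

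The tRNAs carry amino acids to the mitochondrial ribosome. They gave few counts: 13 of the 22 genes had at most 3 counts in every library, 20 had at most 10, and mt-Tf had 0 in all 6. Over the 8 tRNA genes of the light-strand template there were 22, 21 and 38 counts in control libraries and 46, 51 and 132 in zinc-deficient ones. The 14 of the heavy-strand template held 3, 5 and 10 counts and then 17, 14 and 24. Both sums, which are not scaled to depth, were higher in every zinc-deficient library than in every control library. The share of all gene counts held by the 22 tRNA genes together was separate too. The light-strand sums rested on mt-Te, however, and overlapped between the diets when it was left out.

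Of the tRNA genes, only mt-Te and mt-Ts1 passed the filter on low counts, and mt-Te, which lies directly beside mt-Nd6 on the genome, did so through the zinc-deficient libraries. It had 1, 4 and 5 counts in control libraries and 15, 23 and 82 in zinc-deficient ones. The groups were separate, as 9.56% of all genes tested were in that direction, with zinc-deficient 6 far above the rest. The log2 fold change was 3.17 (SE 0.73), with an edgeR adjusted p of 0.144, so it did not pass; over 16 alternatives the adjusted p lay between 0.0128 and 0.350, and it passed in 3 of them, DESeq2 among them. Without zinc-deficient 6 the log2 fold change was 2.29, with an edgeR adjusted p of 0.350. The share of mt-Te in the tRNA counts was 4.0, 15.4 and 10.4% in control libraries and 23.8, 35.4 and 52.6% in zinc-deficient ones. The serine tRNA mt-Ts1, which overlaps the end of mt-Co1 by 3 bases on the opposite strand, had 8, 12 and 23 counts against 19, 10 and 36. Those ranges overlapped, with a log2 fold change of 0.32 (SE 0.57). The histidine tRNA mt-Th, too low to test, had 0, 1 and 3 counts against 8, 5 and 8. The gene mt-Tv, between the rRNAs, had at most 2 counts in any library.

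**Figure D5:**
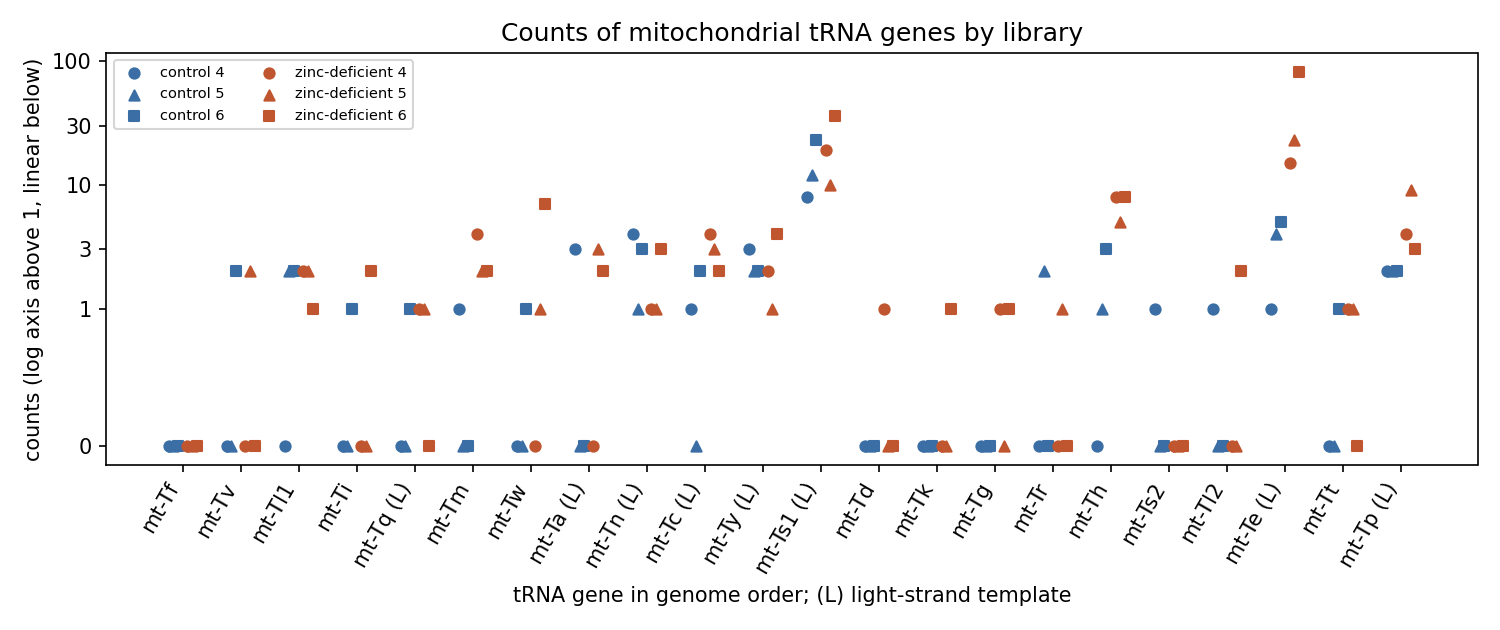
Counts of the 22 tRNA genes in genome order, with 1 point per library (axis linear below 1 and logarithmic above), control in blue and zinc-deficient in orange; (L) marks the light-strand template. Only mt-Te and mt-Ts1 exceed 9 counts, and mt-Te reaches 82 in zinc-deficient 6.

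Nuclear genes that copy, process, stabilise and replicate mitochondrial nucleic acids were compared alongside. Of 59 tested, edgeR called 0, and 4 had an unadjusted p under 0.05, where 12.9% of all genes tested did. DESeq2 and limma-voom also called 0, as did limma on RPKM, which kept 49 of the 59. In edgeR the log2 fold changes of the 59 were 30 negative and 29 positive, with a median of −0.013 beside −0.0021 over all genes. Tfam, which packages the mitochondrial genome and starts its transcription, had a log2 fold change of −0.39 with an edgeR adjusted p of 0.389. Lrpprc and Slirp form a complex that stabilises mitochondrial mRNAs, and their values were −0.27 and 1.24, neither past the test. Fastkd2, an RNA-binding protein needed for the large rRNA, was at −0.49, Grsf1, of the RNA granules where precursors are handled, at 0.14, and Polg, the replicating polymerase, at 0.068.

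The nuclear-encoded subunits of respiratory complexes I to V were mostly on the positive side, without a call. They include 4 of complex II, which has no gene in the mitochondrial genome, and all 4 were positive. Of 75 tested, edgeR called 0, as did DESeq2, limma-voom and limma on RPKM, and 11 had an unadjusted p under 0.05, where 12.9% of all genes tested did. There were 63 with a positive and 12 with a negative log2 fold change, beside 9166 positive and 9261 negative over all genes tested. Their median was 0.19. Their summed level was 3803, 3135 and 4274 CPM in control libraries and 4353, 3953 and 4215 CPM in zinc-deficient ones, so the sums overlapped, and zinc-deficient 4, lowest in mitochondrial mRNA, was highest here. Examples are Ndufb1, an accessory subunit of complex I (0.92), Cox5b of complex IV (0.36) and the catalytic ATP synthase subunit Atp5b (0.031).

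Summed marker levels of other cell types are given beside these results. In the lists given here edgeR called 1 gene, Igll1 of developing B cells (higher). Markers of erythroid cells (8 of 8 present) summed to between 489.3 and 1796 CPM in control libraries and between 1500 and 4228 CPM in zinc-deficient ones, with the highest value in zinc-deficient 4. Markers of neutrophil precursors (4 of 4) summed to between 3.664 and 38.34 CPM and between 68.41 and 94.71 CPM, and those of neutrophils (4 of 4) to between 6.477 and 180 CPM and between 191.5 and 297.5 CPM. Markers of immature neurons (4 of 4) summed to between 256.1 and 272.2 CPM and between 329.8 and 360 CPM, and those of osteoblasts (5 of 5) to between 8094 and 13780 CPM and between 4325 and 9324 CPM. Gland markers (4 of 4) lay between 4929 and 18880 CPM and between 4738 and 8477 CPM. Those of respiratory ciliated cells (3 of 3) lay between 386.4 and 528.9 CPM and between 277.7 and 402.4 CPM. Markers of developing B cells (4 of 4) lay between 11.45 and 18.59 CPM and between 19.59 and 27.62 CPM, and those of sustentacular cells (4 of 4) between 2873 and 3552 CPM and between 3266 and 3706 CPM. The sums of erythroid, osteoblast, gland, respiratory ciliated and sustentacular markers overlapped between the diets. Those of neutrophils, their precursors, immature neurons and developing B cells did not. The sums of olfactory neuron markers, given above, did not overlap either and were higher with zinc deficiency. The part of these cell types in the levels of mitochondrial rRNA and mRNA was not tested. Muscle, a tissue rich in mitochondria, was nearly absent: its 6 markers summed to between 2.644 and 9.502 CPM over all 6 libraries.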

How the data were processed

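From each sample 500 ng of RNA went through rRNA depletion into a library, per the labels' protocols. The authors deposited whole-number counts per gene and RPKM for 6 libraries, per the file headers; the aligner, counter, strand setting and build are not given in the sources used. All 37 mitochondrial genes had the coordinates of GENCODE M21 (GRCm38), but of 38582 nuclear identifiers matched 2.35% did, so nuclear coordinates were not used. The members and gene lists were chosen with earlier results of these data known.

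Counts of all 18427 genes kept by filterByExpr went into edgeR 4.0.16 under R 4.3.3 (TMM, robust quasi-likelihood, two-sided, diet as the only term) and adjusted by Benjamini-Hochberg. The SE of a log2 fold change was derived from its F statistic. Ratios and shares were compared by exact permutation over libraries. Alternatives were DESeq2 1.42.0, limma 3.58.1 (voom, and log2(RPKM + 1) for genes of mean RPKM at least 1), other scalings and filters, leaving out each library and a replicate block. Nuclear copies were sought among GENCODE M21 transcripts with BLAST+ 2.17.0 (at least 100 aligned bases). Matches of at least 99% identity were called near-identical. All members are accounted for; the nuclear genes named came from those of smallest p or highest CPM in each list and from cytosolic rRNA genes of at least 1 CPM. Zinc-deficient 4 was singled out after its values were seen. Libraries of the same diet differed by more than counting noise, so none was treated as a library deposited more than once; this does not show that they are independent.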

Additional observations from a re-analysis of the deposited data

How the results depend on the processing

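The fall of mt-Rnr2 passed the test in 15 of 16 alternatives; it missed in limma on log2(RPKM + 1), where the adjusted p was 0.0867. The fall of mt-Rnr1 passed in 7 of 16. The 16 do not count the stricter adjusted p of 0.01, at which neither rRNA passed. The edgeR count of 22 genes past the test became 172 without the filter on low counts, 344 with DESeq2, 6 with limma-voom, 10 with limma on RPKM and 2 at an adjusted p of 0.01, and lay between 9 (without control 5, control 6 or zinc-deficient 5) and 50 (without control 4) with each library left out. The 2 mitochondrial genes that fell became 1 under median-of-ratios scaling, without scaling and with limma-voom, 0 with limma on RPKM and at 0.01, and between 1 and 2 with each library left out. The 0 that rose became 1, mt-Te, without the filter and with DESeq2. The median log2 fold change of the mRNAs lay between −0.50 and 0.055 with each library left out. The causes were not tested. Adding counts of nuclear copies to the mRNA class was not run, as no row was found for them by identifier. No called value changed direction. Of the 22 tRNA genes, 20 had at most 10 counts in every library, and the reason for such low counts was not tested. The deviations of libraries with the same number from their diet means correlated at −0.048, 0.151 and 0.068. With 3 libraries per diet these values cannot decide whether the numbers pair the libraries, and the labels do not say. A fit with the replicate block called 153 genes, 3 mitochondrial genes lower and 1 higher, with a median of −0.36 over the mRNAs.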
